A study of Mus musculus with 3 samples.

Results

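Collagen genes encode the alpha chains of the collagen proteins, and they were taken here by their symbols: Col, a number, a and a second number. The deposited tables of mouse liver RNA sequencing list 44 such genes among 41799. Of these, 26 had a summed count of at least 15 over the 3 libraries and were compared: 7 of 11 fibrillar genes, 7 of 8 basement membrane genes and 12 of 25 other collagen genes. The libraries came from livers of male C57BL/6 mice (C57BL/6J in the growth protocol) aged 14 weeks. The chow library was from mice on regular chow, the high-fat library from mice on a high-fat diet (HFD), and the DfCS-Ib library from mice on the HFD that also received DfCS-Ib by oral gavage at 40 mg/kg. Each group is described as holding 8 mice, but the number of mice behind a library is not given. All 3 groups share sex, strain, age and tissue, and no group is described that received DfCS-Ib on chow.

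A collagen molecule is a triple helix of 3 alpha chains, which may come from 1 gene or from several. The fibrillar collagens (types I, II, III, V, XI, XXIV and XXVII) assemble into cross-linked fibrils, whereas type IV forms the sheet-like network of basement membranes, to which types XV and XVIII are attached. Other collagens decorate fibrils, form beaded filaments or span the plasma membrane. In liver, stellate cells and portal fibroblasts are the known sources of fibrillar collagen, and its build-up is the scar of fibrosis, which can follow diet-induced fatty liver. Type XVIII is a known product of hepatocytes as well.

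Because each group is 1 library, no difference below has a replicate check and no p-value was computed. Intervals are 95% exact (Clopper-Pearson) intervals of the split of reads between 2 libraries and cover counting error only. The total counts were 11028671 (chow), 12279537 (HFD) and 10969699 (DfCS-Ib), and 3 counts correspond to 0.279, 0.233 and 0.280 CPM. CPM is the count divided by the library total, scaled by the trimmed mean of M-values (TMM) and multiplied by 1000000. A gene counts as at least 2-fold apart on the scale of CPM plus 1, which understates the ratio of low genes. Ratios given with intervals have no such addition. The comparisons share libraries and so are not independent of one another. The tissue label was checked against 10 hepatocyte markers, including Alb and Apoa1, all of which were among the tested genes and together held from 129594 to 164472 CPM.

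Between the HFD and chow libraries, 3 of the 26 collagen genes (Col27a1, Col5a3 and Col3a1) were higher in the HFD library by 2-fold or more, and 1 was lower (Col4a3). That is 11.5% higher and 3.85% lower, beside 3.19% and 2.06% of the 15024 genes with as many counts. Between the DfCS-Ib and HFD libraries, 0 were at least 2-fold higher and 2 (7.69%) were lower (Col27a1 and Col5a3), beside 2.23% and 1.88% of all tested genes. Between the DfCS-Ib and chow libraries, 1 (3.85%) was higher (Col3a1) and 0 were lower, beside 1.47% and 0.419%. In any pair of libraries, 4 of 26 (15.4%) were so far apart, beside 7.5% of all tested genes. The 3 fibrillar genes that passed 2-fold showed 2 patterns: Col27a1 and Col5a3 were high in the HFD library alone, and Col3a1 was low in the chow library alone.

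The sequences before the starts of these 3 genes are shown because they carry the members that stood apart. Each is the 250 bases upstream of the start in the RefSeq promoter table (GRCm38.p6), read 5′ to 3′ on the gene's strand. Capitals mark matches to a TATA-box motif spelled TATAAA, the box known as CCAAT and a GC-box motif spelled GGGCGG, each searched on both strands.
Col27a1, chr4:63215162-63215411, plus strand: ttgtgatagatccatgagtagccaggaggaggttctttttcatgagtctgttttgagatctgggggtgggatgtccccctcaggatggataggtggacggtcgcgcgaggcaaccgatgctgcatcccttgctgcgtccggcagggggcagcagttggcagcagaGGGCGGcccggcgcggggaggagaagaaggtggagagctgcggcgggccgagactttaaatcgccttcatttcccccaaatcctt
Col5a3, chr9:20815068-20815317, minus strand: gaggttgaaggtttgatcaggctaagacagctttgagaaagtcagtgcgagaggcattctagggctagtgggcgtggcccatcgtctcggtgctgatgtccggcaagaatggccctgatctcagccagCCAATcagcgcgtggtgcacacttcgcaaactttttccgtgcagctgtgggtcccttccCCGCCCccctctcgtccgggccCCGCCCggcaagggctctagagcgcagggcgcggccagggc
Col3a1, chr1:45311288-45311537, plus strand: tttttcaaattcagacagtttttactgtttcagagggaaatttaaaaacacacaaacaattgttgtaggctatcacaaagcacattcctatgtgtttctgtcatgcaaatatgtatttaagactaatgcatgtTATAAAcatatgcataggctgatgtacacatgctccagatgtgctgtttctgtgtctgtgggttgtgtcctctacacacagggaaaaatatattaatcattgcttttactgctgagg
The Col27a1 and Col5a3 windows are GC-rich, at 59.6% and 62.8% G or C with 15 and 17 CpG pairs, and hold 1 and 2 GC boxes. The Col3a1 window differs from both: it is 35.2% G or C, has 0 CpG pairs and holds a TATA box. Over all 32851 windows of that length, 12.4% hold TATAAA, 33.8% CCAAT and 32.7% GGGCGG. In the 23 windows of the 21 tested collagen genes found in the table, the counts were 2, 7 and 14. An E-box motif spelled CACGTG, held by 6.02% of all windows, was in 0 of the 23. A match describes letters in a window and not a binding site. The RefSeq starts used for Col27a1 and Col5a3 lie inside the deposited gene models and not at their ends. The Col27a1 window therefore lies wholly within its model, and the Col5a3 window partly.

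Levels can be compared between genes only per length, here as the authors' deposited RPKM (reads scaled to gene length and library total). Col18a1 was far above the rest, at 109.7 RPKM in the chow library, 126 in the HFD library and 128 in the DfCS-Ib library. It alone held 79.6%, 76.2% and 78.4% of all collagen reads. The next gene in all 3 libraries was Col14a1, with 6.53, 7.58 and 9.13 RPKM, and Col4a1 had 5.03, 5.67 and 6.89. In the chow library Col5a3 (2.41 RPKM), Col3a1 (1.74) and Col27a1 (1.27) lay below Col4a2 (3.87), whereas in the HFD library they had 6.48, 4.38 and 4.20 RPKM and lay above it (3.17). Not all levels in this order could be told apart: Col3a1 and Col1a2 in the chow library had a ratio per length of 1.09 (0.814 to 1.45).

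**Figure D1:**
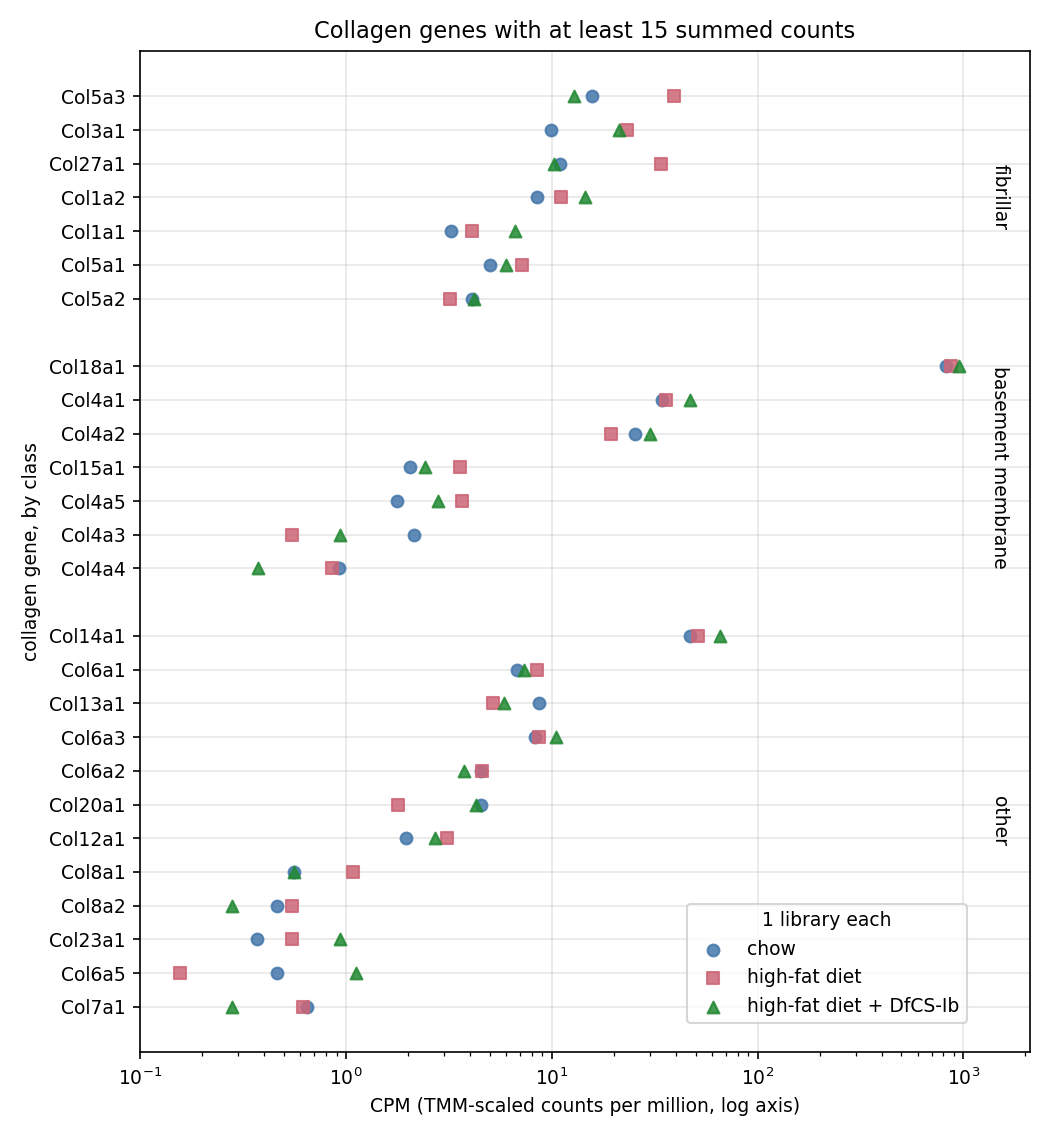
Level of each collagen gene with at least 15 summed counts, grouped by class, in TMM-scaled CPM on a log axis, with 1 point per library. Col18a1 lies alone between 821 and 955 CPM, and the points of the HFD library stand to the right of the other libraries for Col27a1 and Col5a3.

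Col27a1 (chr4:63214009-63334991, plus strand) encodes the chain of type XXVII, a fibrillar collagen best known from cartilage. It had 118 counts in the chow library, 435 in the HFD library and 110 in the DfCS-Ib library, or 11.0, 33.8 and 10.3 CPM. The chow and DfCS-Ib libraries were close together, with a ratio of 0.935 (0.714 to 1.22), and the HFD library lay above both. Its level in the HFD library was 3.08 times that in chow (2.51 to 3.81), and 3.30 times that in the DfCS-Ib library (2.67 to 4.10). Among the 15024 genes tested, 156 had an HFD to chow log2 ratio at least as high as its 1.54.

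Col5a3 (chr9:20770050-20815117, minus strand) encodes the alpha3 chain of type V, a minor fibrillar collagen described in adipose tissue, muscle and pancreatic islets. It had 168, 504 and 137 counts in the chow, HFD and DfCS-Ib libraries, or 15.6, 39.2 and 12.8 CPM. The order was that of Col27a1: only the HFD library was high, and the other libraries had a DfCS-Ib to chow ratio of 0.818 (0.648 to 1.03). The HFD library was 2.51-fold above chow (2.10 to 3.01) and 3.07-fold above the DfCS-Ib library (2.53 to 3.73). Col27a1 and Col5a3 were the 2 of 26 collagen genes (7.69%) that lay at least 2-fold above both other libraries while those lay within 1.5-fold of each other, beside 1.08% of all tested genes.

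Col3a1 (chr1:45311538-45349706, plus strand) encodes the single chain of type III, which forms fibrils together with type I in soft tissues and in the scarred liver. It had 107, 299 and 227 counts in the chow, HFD and DfCS-Ib libraries, or 9.94, 23.2 and 21.2 CPM. Here the HFD and DfCS-Ib libraries were both high and the chow library low. The HFD to chow ratio was 2.34 (1.87 to 2.94) and the DfCS-Ib to chow ratio 2.13 (1.68 to 2.70), while the DfCS-Ib to HFD ratio of 0.911 (0.763 to 1.09) spanned 1. Col3a1 was the 1 collagen gene (3.85%) that was low in the chow library alone by this rule, beside 0.453% of all tested genes. No collagen gene was by this rule high in chow alone (0.113% of all tested genes), low in HFD alone (0.912%), or high or low in the DfCS-Ib library alone (0.253% and 0.0266%). An opposite-strand gene model that overlaps it had 6, 13 and 11 counts, and whether the counting used strand is not given in the sources used here.

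Type I is the most abundant collagen of scar tissue and is built of 2 chains from Col1a1 and 1 from Col1a2. Col1a1 (chr11:94936270-94951867) had 35, 53 and 71 counts in the chow, HFD and DfCS-Ib libraries, or 3.25, 4.12 and 6.62 CPM. Col1a2 (chr6:4505697-4541543) had 91, 143 and 155 counts, or 8.46, 11.1 and 14.4 CPM. Both were lowest in the chow library and highest in the DfCS-Ib library. The HFD to chow ratio of Col1a1, 1.27 (0.811 to 2.00), spanned 1, and that of Col1a2 was 1.31 (1.003 to 1.73). For Col1a1 the DfCS-Ib library was 2.03 times chow (1.34 to 3.14) and 1.61 times HFD (1.11 to 2.34). For Col1a2 it was 1.71 times chow (1.31 to 2.24) and 1.30 times HFD (1.03 to 1.64). The 3 genes of types I and III together had 21.7, 38.5 and 42.2 CPM, a ratio of 1.78 for HFD to chow (1.52 to 2.08) and 1.10 for DfCS-Ib to HFD (0.964 to 1.25).

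The other chains of type V, a regulator of fibril diameter, lay closer together between libraries than Col5a3. Col5a1 had 54, 92 and 64 counts, an HFD to chow ratio of 1.42 (1.01 to 2.03) and a DfCS-Ib to HFD ratio of 0.834 (0.597 to 1.16). Col5a2 had 44, 41 and 45 counts, with an HFD to chow ratio of 0.779 (0.497 to 1.22).

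The fibrillar class thus held opposite patterns within 1 sum. Summed over its 7 genes it had 57.3 CPM in the chow library, 121.8 in the HFD library and 75.4 in the DfCS-Ib library. The HFD library was 2.12 times chow (1.93 to 2.33) and 1.61 times the DfCS-Ib library (1.48 to 1.76). Col5a3 and Col27a1 made up 73.0 of the 121.8 CPM in the HFD library. Without these, the other 5 genes had 30.8, 48.8 and 52.4 CPM: the HFD to chow ratio was 1.59 (1.39 to 1.82) and the DfCS-Ib to HFD ratio was 1.07 (0.956 to 1.20). The lower fibrillar sum in the DfCS-Ib library than in the HFD library therefore rested on these 2 genes, which were left out because of that pattern.

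**Figure D2:**
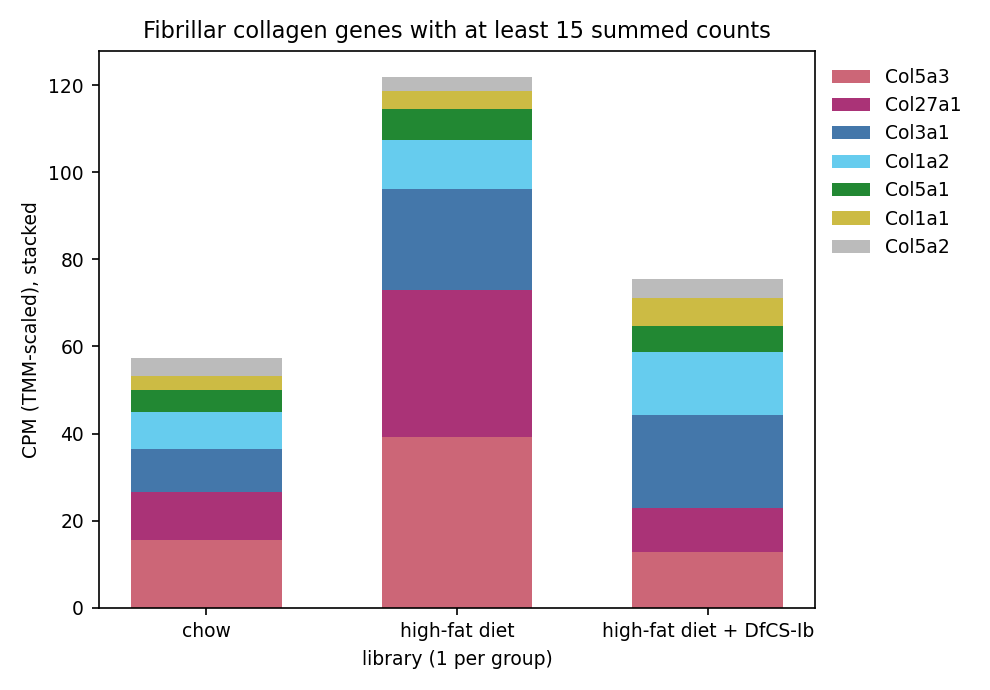
Stacked TMM-scaled CPM of the 7 fibrillar collagen genes in each library, 1 bar per library. Col5a3 and Col27a1 fill 73.0 of 121.8 CPM in the HFD bar and are smaller in the chow and DfCS-Ib bars, while Col3a1 is of similar height in the HFD and DfCS-Ib bars.

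**Figure D3:**
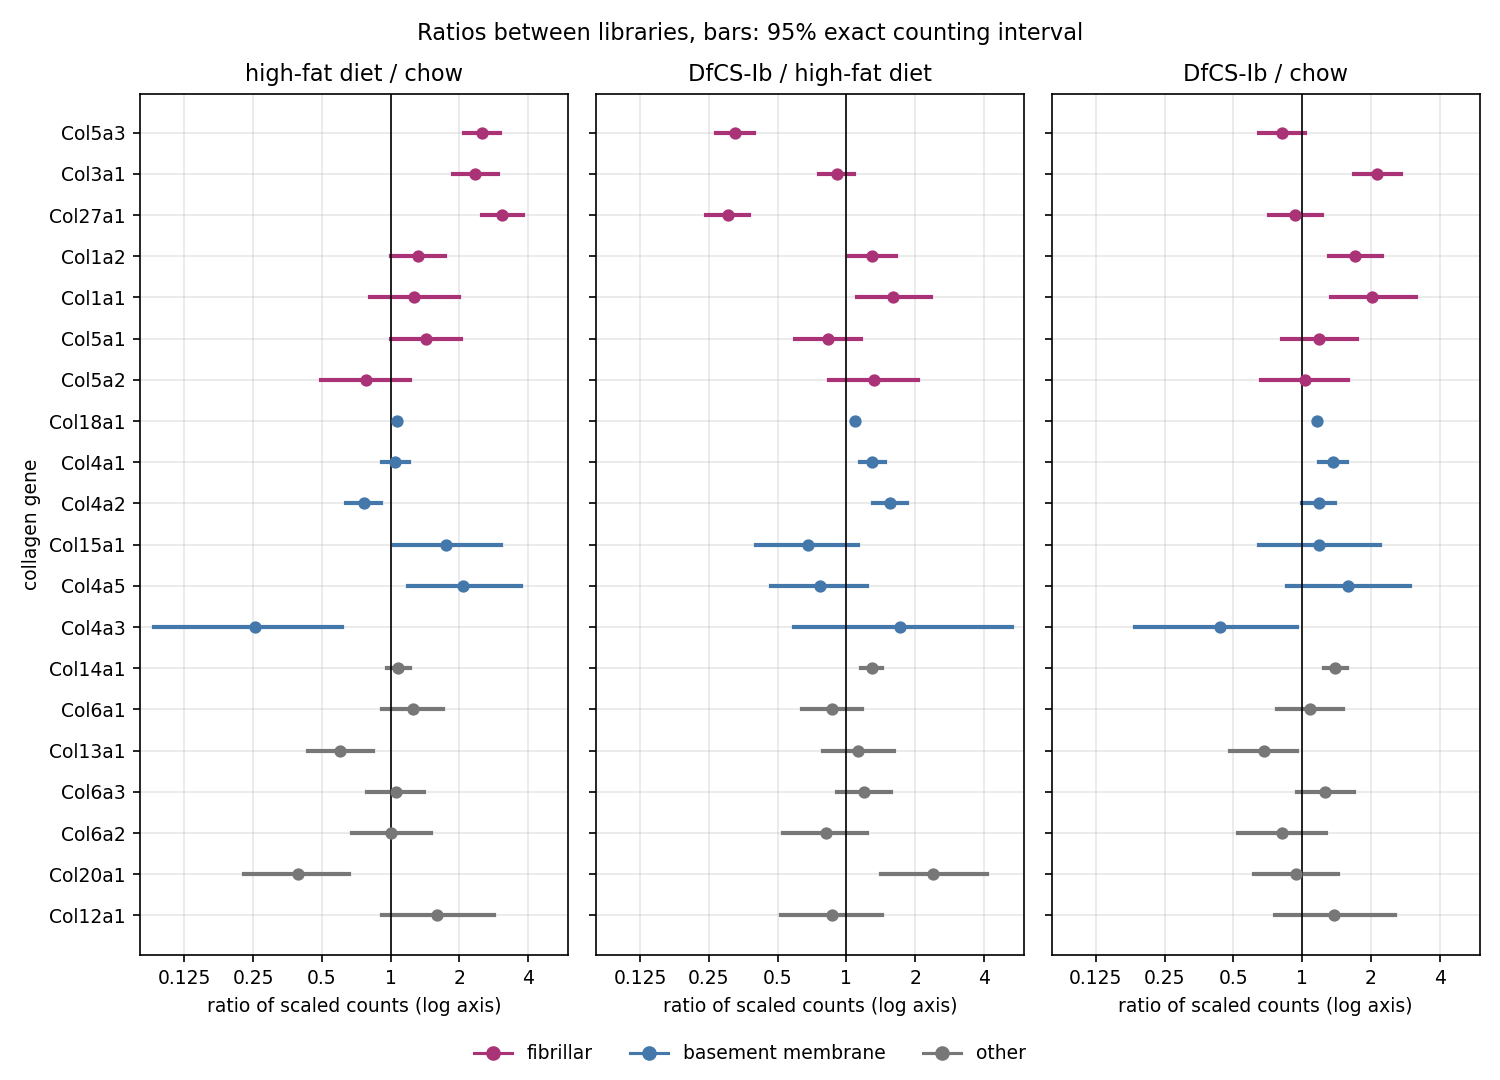
Ratios of scaled counts between libraries for collagen genes with at least 40 summed counts, 1 panel per comparison on a log axis, points coloured by class and bars giving the 95% exact counting interval. Col27a1 and Col5a3 lie farthest to the right in HFD against chow and farthest to the left in DfCS-Ib against HFD, and are near 1 in DfCS-Ib against chow.

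The basement membrane class held most collagen reads through 1 gene. Col18a1 (chr10:77052178-77166530, minus strand) encodes the proteoglycan collagen whose end fragment is endostatin. It had 8832, 11259 and 10248 counts in the chow, HFD and DfCS-Ib libraries, or 821, 875 and 955 CPM. Its large counts give narrow intervals around small ratios: 1.07 for HFD to chow (1.04 to 1.10), 1.09 for DfCS-Ib to HFD (1.06 to 1.12) and 1.16 for DfCS-Ib to chow (1.13 to 1.20). Variation between mice was not measured.

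Col4a1 and Col4a2 encode the chains of the common type IV network, which contains 2 alpha1 chains and 1 alpha2 chain. They are transcribed in opposite directions from 1 shared start region, and the gene models begin at chr8:11312826 (Col4a1, minus strand) and chr8:11312829 (Col4a2, plus strand), with 2 bases between them. The region is shown because the pair share it and yet differ below. It covers chr8:11312813-11312842 of GRCm38.p6 on the plus strand, and capitals mark the 2 bases between the starts.
Col4a1-Col4a2 start region: ggcggcgtctccaaGGggaggaccctgcgg
Col4a1 had 368, 462 and 501 counts in the chow, HFD and DfCS-Ib libraries, or 34.2, 35.9 and 46.7 CPM. Col4a2 had 274, 250 and 323 counts, or 25.5, 19.4 and 30.1 CPM. Both were highest in the DfCS-Ib library, at 1.30 times HFD for Col4a1 (1.14 to 1.48) and 1.55 times HFD for Col4a2 (1.31 to 1.84). The pair parted in the HFD library: Col4a1 was 1.05 times chow (0.914 to 1.21), whereas Col4a2 was 1.31-fold below chow (1.10 to 1.56).

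The remaining type IV chains, known from the glomerulus and other specialised basement membranes, had few reads. Col4a3 had 23, 7 and 10 counts in the chow, HFD and DfCS-Ib libraries, and was 3.93-fold lower in HFD than in chow (1.63 to 10.8). The gene models that overlap Col4a3 on the opposite strand had 14, 8 and 10 counts, and 4, 9 and 4 counts. In the HFD library each had slightly more counts than Col4a3 itself, and in the DfCS-Ib library the former had as many. Col4a5 had 19, 47 and 30 counts, an HFD to chow ratio of 2.07 (1.19 to 3.73). Col4a4 had 10, 11 and 4 counts. Col15a1, a type XV chain often used to mark portal fibroblasts, had 22, 46 and 26 counts and an HFD to chow ratio of 1.75 (1.03 to 3.05).

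Summed over its 7 genes, the basement membrane class had 887 CPM in the chow library, 939 in the HFD library and 1038.5 in the DfCS-Ib library. Without Col18a1 the sum was 66.5, 64.0 and 83.3 CPM, so that the HFD to chow ratio of 1.06 (1.03 to 1.09) became 0.961 (0.869 to 1.06). The DfCS-Ib to HFD ratio was above 1 either way, at 1.11 (1.08 to 1.14) with Col18a1 and 1.30 (1.18 to 1.43) without it. Since Col18a1 held most collagen reads, the fibrillar class was a small share of them: it was 5.56% (5.14 to 6.01) in chow, 10.6% (10.1 to 11.1) in HFD and 6.19% (5.78 to 6.62) in the DfCS-Ib library.

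The other collagens were led by Col14a1, a collagen that binds the surface of fibrils. It had 508, 657 and 707 counts in the chow, HFD and DfCS-Ib libraries, or 47.2, 51.1 and 65.9 CPM. Like Col4a1, it was highest in the DfCS-Ib library, at 1.29 times HFD (1.16 to 1.44) and 1.40 times chow (1.24 to 1.57). The HFD to chow ratio of 1.08 (0.962 to 1.22) spanned 1.

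Type VI forms beaded microfibrils around cells. Its chains had 73, 109 and 79 counts for Col6a1, 49, 59 and 40 for Col6a2, and 89, 112 and 112 for Col6a3. All intervals of their HFD to chow ratios spanned 1, with 1.25 (0.920 to 1.70) for Col6a1 and 1.05 (0.790 to 1.41) for Col6a3.

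Lower values in the HFD library than in chow were seen for Col13a1 and Col20a1. Col13a1, a transmembrane collagen of cell adhesion sites, had 93, 67 and 63 counts in the chow, HFD and DfCS-Ib libraries. It was lower in the HFD and DfCS-Ib libraries than in chow, 1.66-fold below chow in HFD (1.20 to 2.31) and 1.47-fold below chow in the DfCS-Ib library (1.06 to 2.06). Col20a1, a little-studied member of the fibril-associated group, had 49, 23 and 46 counts. Only its HFD value was low, 2.55-fold below chow (1.52 to 4.38), and the DfCS-Ib library was 2.40 times HFD (1.42 to 4.15). On the CPM plus 1 scale its log2 ratios were −0.99 and 0.92, just short of 2-fold.

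Of the remaining other collagens, Col12a1 had 21, 40 and 29 counts, Col8a1 had 6, 14 and 6, and the rest lay near the count minimum. Just inside it were Col8a2 with 15 summed counts (5, 7 and 3), Col7a1 with 18 (7, 8 and 3), Col6a5 with 19 (5, 2 and 12) and Col23a1 with 21 (4, 7 and 10). Just outside, over all classes, were the fibrillar gene Col24a1 with 12 (2, 8 and 2), Col25a1 with 10 (4, 3 and 3), the basement membrane gene Col4a6 with 8 (1, 7 and 0) and Col6a6 with 8 (2, 4 and 2). Of the 18 genes under the minimum, 6 had 0 counts in all 3 libraries, among them the cartilage gene Col2a1, and 12 had from 1 to 12 counts.

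Counted by interval and not by size, 8 of 26 collagen genes (30.8%) had an HFD to chow interval wholly above 1, beside 21.1% of all tested genes, and 4 (15.4%) one wholly below 1, beside 20.0%. Between the DfCS-Ib and HFD libraries, 8 of 26 lay above 1 and 2 below, beside 18.4% and 19.1% of all tested genes. The 8 above were Col14a1, Col18a1, Col1a1, Col1a2, Col20a1, Col4a1, Col4a2 and Col6a5, and the 2 below were Col27a1 and Col5a3. Between the DfCS-Ib and chow libraries, 7 lay above 1 and 2 below, beside 14.4% and 12.7%. The median log2 ratio over the 26 genes was 0.10 for HFD to chow, beside 0.02 for all tested genes, and −0.00 for DfCS-Ib to HFD, beside −0.01. By class, the HFD to chow medians were 0.44 for fibrillar, 0.07 for basement membrane and 0.07 for other collagens.

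Chains that form 1 protein were then set against each other within each library, per length. The Col1a1 to Col1a2 ratio was 0.420 (0.276 to 0.627) in chow, 0.405 (0.290 to 0.558) in HFD and 0.5003 (0.372 to 0.667) in the DfCS-Ib library. The protein is made up 2 to 1, but reads per gene length measure RNA and not protein chains. The Col4a1 to Col4a2 ratio was 1.30 (1.11 to 1.53), 1.79 (1.53 to 2.10) and 1.503 (1.30 to 1.73). The type I intervals overlapped in all 3 libraries, whereas the type IV interval in chow ended at 1.527, just below the start of that in HFD at 1.532.

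Col5a3 to Col5a1 had the widest swing of these pairs, at 4.18 (3.06 to 5.79) in chow, 7.35 (5.88 to 9.29) in HFD and 2.87 (2.12 to 3.93) in the DfCS-Ib library. For Col3a1 to Col1a2, the partners of mixed fibrils, the ratio was 1.09 in chow (0.814 to 1.45), 1.93 in HFD (1.58 to 2.38) and 1.35 in the DfCS-Ib library (1.10 to 1.67). Col6a1 to Col6a2 lay between 2.16 and 2.86 with overlapping intervals.

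**Figure D4:**
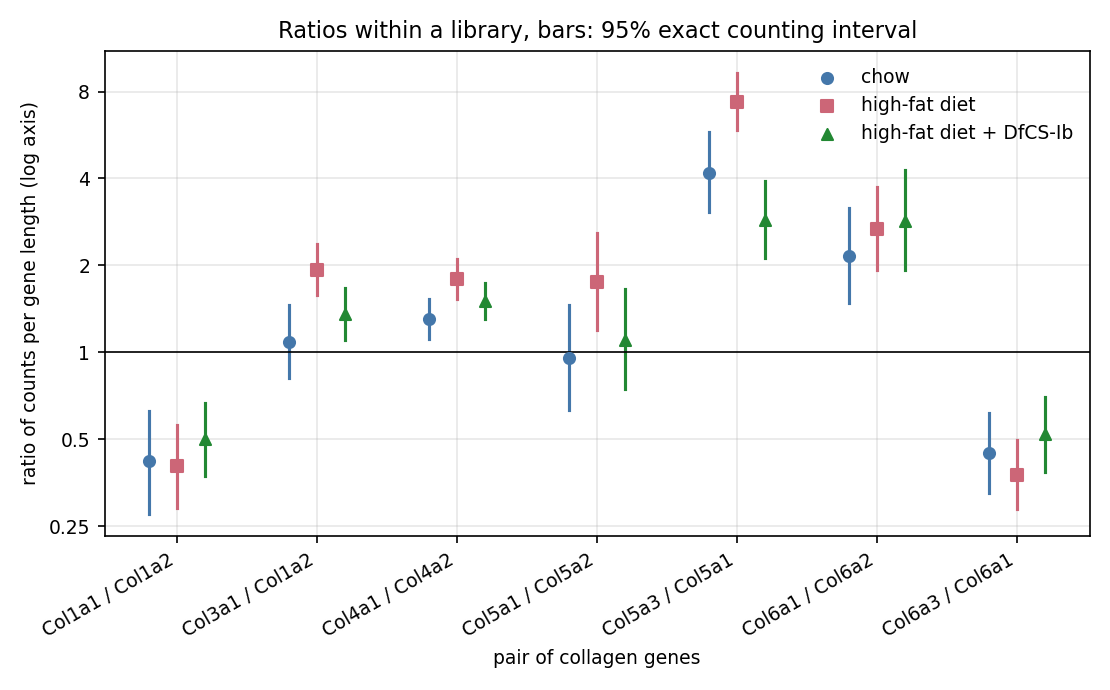
Ratio of counts per gene length between collagen genes whose chains pair in a protein or fibril, within each library, on a log axis with bars for the 95% exact counting interval. Col5a3 to Col5a1 is highest in the HFD library at 7.35, while Col1a1 to Col1a2 lies between 0.405 and 0.5003 in all 3 libraries.

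Few of the enzymes and partners of collagen were at least 2-fold apart between libraries, as were few of all tested genes. Of all tested genes, 3.19% were higher and 2.06% lower for HFD to chow, and 2.23% and 1.88% for DfCS-Ib to HFD. The lists below are small, and their counts of 0 or 1 are not read as a result about collagen partners. Of 34 tested genes for chain modification and assembly, led by P4hb, a subunit of prolyl 4-hydroxylase, 0 were at least 2-fold apart between HFD and chow (median log2 ratio −0.10). Loxl4, a cross-linking lysyl oxidase with 27, 62 and 20 counts in the chow, HFD and DfCS-Ib libraries, was the 1 gene lower in DfCS-Ib than in HFD, with a ratio of 0.387 (0.221 to 0.649). Serpinh1, the collagen chaperone HSP47, was looked at after its values were seen. It had 67, 165 and 104 counts and an HFD to chow ratio of 2.06 (1.54 to 2.78), though under 2-fold on the CPM plus 1 scale.

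Among 21 tested matrix metalloproteinases, related proteases and inhibitors, 1 was higher in HFD than in chow and 1 lower. Mmp15, a membrane-bound metalloproteinase, had 186, 554 and 267 counts and a ratio of 2.49 (2.11 to 2.96). Ctsl, the lysosomal protease cathepsin L, had 12902, 6584 and 10279 counts and was 2.34-fold lower in HFD (2.28 to 2.41). Between DfCS-Ib and HFD, 0 of the 21 passed 2-fold. Timp1, an inhibitor that rises in fibrotic liver, had 0 counts in all 3 libraries. Its gene model lies inside that of Syn1 on the opposite strand, and how reads shared by gene models were counted is not given. A limit of 0.280 CPM would hold only if such reads were counted for Timp1, so the 0 does not bound its level.

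Of 37 tested genes of the TGF-beta pathway, the main known inducer of fibrillar collagen, 1 was at least 2-fold lower in HFD than in chow and 0 were higher (median −0.09). It was Ctgf, a matricellular growth factor with 492, 232 and 274 counts, 2.54-fold lower in HFD (2.17 to 2.98). The ligand gene Tgfb1 had 75, 69 and 93 counts.

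Of 22 tested other basement membrane proteins, 0 were 2-fold apart between HFD and chow, and 1, Fras1 (57, 90 and 29 counts), was lower in DfCS-Ib than in HFD. Of 33 other matrix proteins, Spon2 (88, 238 and 106 counts) was higher in HFD than in chow, Mmrn1 (29, 6 and 13) was lower, and Thbs2, which encodes thrombospondin-2 (60, 40 and 79), was higher in DfCS-Ib than in HFD. Of 8 collagen receptor genes, 1 was lower in HFD than in chow and higher in DfCS-Ib than in HFD: Itga2, an integrin chain, with 19, 0 and 26 counts. The medians of these 6 lists lay between −0.28 and −0.01 for HFD to chow, and 0 of their genes were 2-fold apart between DfCS-Ib and chow. Of all tested genes, 1.47% were higher and 0.419% lower in that comparison.

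Markers of cells that make collagen, or that carry it into a liver sample, are given beside these results. In whole tissue, fewer cells of a type and less RNA per cell cannot be told apart. The 14 stellate cell markers summed to 375 CPM in chow, 342 in HFD and 422 in the DfCS-Ib library, and 1 was at least 2-fold higher in HFD than in chow: Ngfr, with 16, 57 and 25 counts. Lrat and Reln, which define quiescent stellate cells, had 257, 252 and 275 counts and 926, 971 and 1144 counts. The 12 myofibroblast markers, 10 of them tested, summed to 1557, 1484 and 1904 CPM, but Fn1, which hepatocytes also make, held 1481, 1387 and 1822 CPM of these. The median log2 ratios of the list went the other way from its sums, at 0.19 for HFD to chow and −0.14 for DfCS-Ib to HFD. Tpm2 (10, 79 and 26 counts) and S100a6 were higher in HFD than in chow, and Tpm2 was lower in DfCS-Ib than in HFD. Acta2, the standard marker of activated stellate cells, had 14, 36 and 22 counts.

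The 11 portal fibroblast markers, 8 of them tested, include genes of the mesothelial surface. All 11 together summed to 7.16, 14.9985 and 10.8 CPM, an HFD to chow ratio of 2.10 (1.60 to 2.77). Msln (0, 16 and 3 counts) and Upk3b (4, 23 and 5), both mesothelial genes, were higher in HFD than in chow, and Cd34 was higher in DfCS-Ib than in chow. Of 6 adipocyte markers, 2 were tested. Cfd, an adipokine, had 1, 77 and 3 counts and was more than 2-fold higher in HFD than in both other libraries, and Lpl, which other liver cells also express, had 216, 340 and 309. The defining adipocyte genes Adipoq and Plin1 had 0, 1 and 0 counts each, and Lep and Retn had 0 in all 3 libraries. Msln, Upk3b and Cfd thus had their highest counts in the HFD library, as Col27a1 and Col5a3 did. On the CPM plus 1 scale, which understates the ratio of such low genes, 0 portal fibroblast markers were 2-fold lower in DfCS-Ib than in HFD. Summed over all 11, these markers had a DfCS-Ib to HFD ratio of 0.721 (0.568 to 0.912). The part of the portal fibroblast and adipocyte markers in the collagen values was not tested.

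Macrophage markers moved with the DfCS-Ib library, where Col1a1, Col1a2, Col4a1, Col4a2 and Col14a1 were highest. The 14 markers summed to 408, 514 and 870 CPM. None was 2-fold apart between HFD and chow, 3 (Emr1, Marco and Itgam) were higher in DfCS-Ib than in HFD, and 5 (Emr1, Clec4f, Cd5l, C1qb and C1qc) were higher in DfCS-Ib than in chow. The 14 endothelial markers, from cells that also make type IV collagen, summed to 484, 454 and 539 CPM, and Lyve1 was lower in HFD than in both other libraries (247, 128 and 259 counts). Their part in the collagen values was not tested.

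The 9 bile duct markers, 8 of them tested, summed to 109, 121 and 85.6 CPM. The 6 smooth muscle markers, 4 of them tested, summed to 19.0, 17.8 and 15.7 CPM. For either list, 0 tested genes were 2-fold apart in any comparison. The hepatocyte markers summed to 164472, 129594 and 148426 CPM: Tat and Cps1 were lower in HFD than in chow, and Tat was higher in DfCS-Ib than in HFD.

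**Figure D5:**
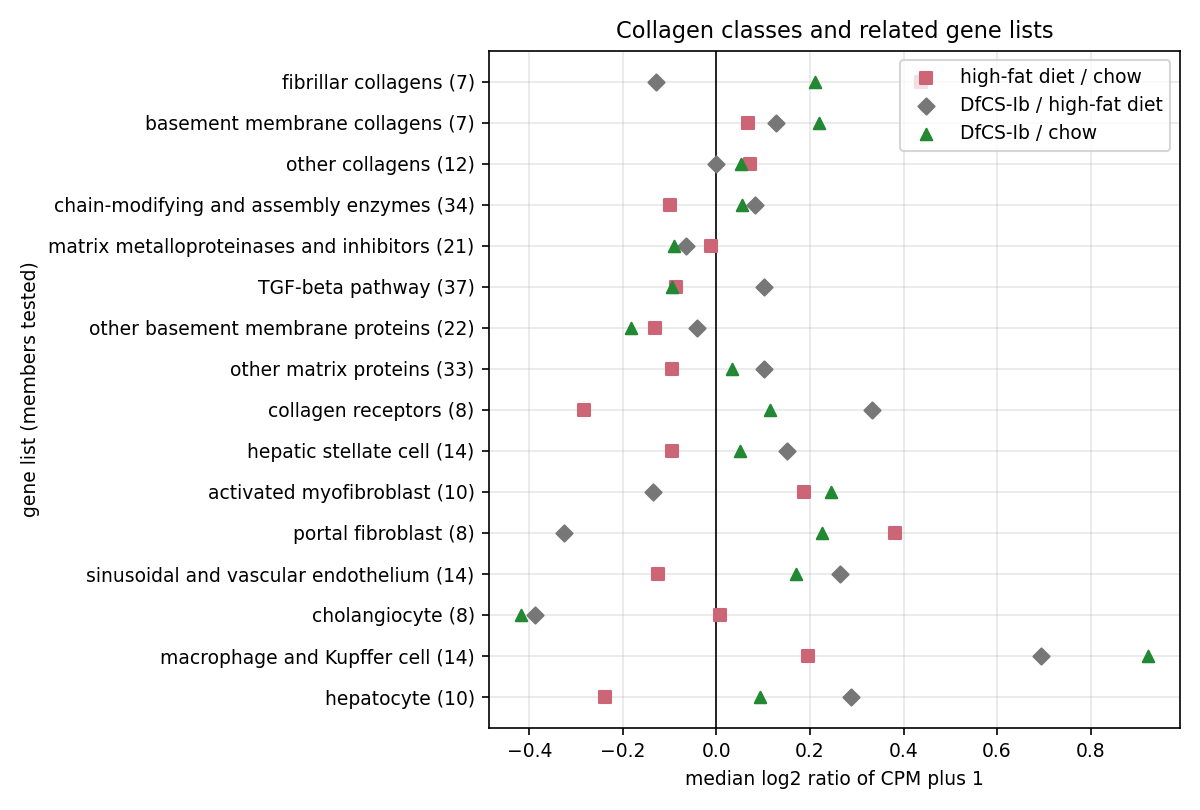
Median log2 ratio of CPM plus 1 for the collagen classes, the related gene lists and the cell type marker lists, with 1 point per comparison and the number of tested genes beside each name. The adipocyte and smooth muscle lists, with 2 and 4 tested genes, are not shown. Fibrillar collagens lie at 0.44 in HFD against chow, and the macrophage list lies at 0.69 in DfCS-Ib against HFD and 0.92 in DfCS-Ib against chow.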

How the data were processed

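Counts per gene and RPKM were deposited by the authors for each library, per the file headers. The submitters' processing notes name TopHat2 and the genome build mm10. What counted the reads, whether strand was used and which annotation served are points not given in the sources used here. The deposited RPKM equalled counts per length and library total within 0.000506%. Counts were scaled by TMM (edgeR 4.0.16 in R 4.3.3; factors 0.976, 1.048 and 0.978 for chow, HFD and DfCS-Ib). Genes with a summed count of at least 15 were compared, and log2 ratios were taken of CPM plus 1, computed from the deposited counts. With 1 library per group, no test was run, so the calls rest on size. The counting of calls was tested on simulated data that held counting error only, so variation between mice was not covered. Values in every library are given for collagen genes at least 2-fold apart in any pair or with at least 100 summed counts. For the other lists (chain-modifying and assembly enzymes, metalloproteinases and inhibitors, TGF-beta pathway, other basement membrane proteins, other matrix proteins), the gene of highest mean CPM and those at least 2-fold apart qualified for naming. The genes, lists and rules were chosen with earlier results of these data known. Alternatives were other scalings (library totals, DESeq2 1.42.0 size factors, RPKM), a pseudocount of 0.25 CPM, other count filters, 1.5-fold, an interval rule, and sums without overlapping or leading genes. Promoter sequences came from RefSeq for 35 of 44 collagen genes. Protein sequences were not used here. A result of the TGF-beta list is not reported here.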

Additional observations from a re-analysis of the deposited data

How the results depend on the processing

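No paired analysis was possible because each group has 1 library. HFD to chow, genes at least 2-fold lower numbered 1, against 0 without scaling factors or on RPKM, 2 with DESeq2 factors, a pseudocount of 0.25 CPM or the interval rule, 3 at 1.5-fold and 0 without overlapping gene models. Genes higher numbered 3, against 2 on RPKM (without Col3a1), 4 by the interval rule (with Col4a5), 5 at 1.5-fold and 1 without overlapping models, which leaves out Col27a1 and Col3a1. Calls on RPKM were made after adding 1 RPKM, which understates the ratio of low genes. Col3a1 fell short of 2-fold on RPKM through that addition. Without it and without scaling factors, its ratios were 2.51 for HFD to chow and 2.13 for DfCS-Ib to chow. The models that overlap Col27a1, Col18a1 and Col4a2 had 0 counts in all 3 libraries. No model that overlaps a compared collagen gene had more than 14 counts in any library. DfCS-Ib to HFD, 0 were higher, against 2 at a pseudocount of 0.25 CPM, 3 at 1.5-fold and 2 by the interval rule, and 2 were lower, against 1 without overlapping models. DfCS-Ib to chow, 1 was higher, against 0 on RPKM, 3 at 1.5-fold, 2 by the interval rule and 0 without overlapping models, and 0 were lower, against 1 at 0.25 CPM, 1 at 1.5-fold and 1 by the interval rule.

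Leaving out overlapping models moved the HFD to chow sums from 2.12 to 1.83 (fibrillar), 1.06 to 1.67 (basement membrane) and 1.02 to 1.16 (other). It turned the DfCS-Ib to HFD sum of the basement membrane class from 1.11 to 0.703, with an interval of 0.446 to 1.09 that spanned 1. Only 2 genes with under 100 summed counts, Col4a4 and Col4a5, were left in that class. The sum of other collagens went from 1.20 to 0.997 (0.851 to 1.17) in the same comparison. Without Col18a1 the basement membrane ratios were 0.961, 1.30 and 1.25 for HFD to chow, DfCS-Ib to HFD and DfCS-Ib to chow, and with type IV alone 0.936, 1.34 and 1.25. Without scaling factors, HFD to chow was 1.14 and DfCS-Ib to HFD 1.03 for that class, and on RPKM 1.14 and 1.03. Without Col5a3 the fibrillar ratio was 0.758 for DfCS-Ib to HFD (0.619 with it) and 1.501 for DfCS-Ib to chow (1.32 with it). Other collagens without Col14a1 had 1.08 and 1.008 for these comparisons, and on RPKM 1.09 for DfCS-Ib to HFD. Of 48 recomputed summed ratios, 16 moved beyond the counting interval and another 4 crossed 1 although their first interval did not span it, and of 54 counts 20 moved by over 1.5 times or to or from 0. Of 84 medians, 8 changed sign, among them DfCS-Ib to HFD for the basement membrane class, from 0.13 to −0.36 without overlapping models, which left 2 genes.

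Without scaling factors the median of all tested genes was 0.10 for HFD to chow and −0.10 for DfCS-Ib to HFD. Of all genes called, 60.8% were higher in HFD than chow by TMM and 70.2% without factors, and for DfCS-Ib against HFD 54.2% and 43.2% were higher. Among the 26 collagen genes, the HFD to chow ratio crossed 1 for Col7a1 (1.03 without factors) and Col6a2 (0.9996 with DESeq2 factors). The intervals of Col18a1 and Col1a2 for DfCS-Ib to HFD spanned 1 without factors, as did those of Col1a2 and Col5a1 for HFD to chow with DESeq2 factors, while that of Col14a1 for HFD to chow rose above 1 without factors. The counts cover 1 library per group, so that diet, treatment and library cannot be told apart, and 10 of the 26 genes have under 100 summed counts.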
